A study of Mus musculus with 20 samples.

Results

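Nuclear-encoded oxidative phosphorylation (OXPHOS) genes were followed across 20 mouse RNA-seq libraries of pluripotent cell lines. The members were all genes whose symbol begins with Nduf, Uqcr, Atp5 or Cox4 to Cox8, or is Sdha, Sdhb, Sdhc or Sdhd, without symbols marked as pseudogenes by "-ps" (2 symbols, Cox7c-ps1 and Ndufs5-ps). The rule gave 94 of the 21361 genes in the table and used no measured value. They comprised 37 genes with complex I subunit symbols, 8 complex I assembly factors, 4 complex II subunits, 8 complex III subunits, 19 complex IV subunits, 17 ATP synthase subunits and the supercomplex factor Cox7a2l. The filter on low counts kept 92 for testing; Cox8b (7 counts over all libraries) and Ndufa11b (13 counts) were not tested. Ndufa11b and Ndufb4c (70 counts, tested) are annotated as processed pseudogenes and were kept, since the rule goes by symbol. None of the mitochondrially encoded OXPHOS genes was among the rows analysed here, so all values concern the nuclear share of the complexes.

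The lines were embryonic stem cells (ESC) or PGC-ESC, pluripotent lines obtained from primordial germ cells (PGCs). ESC Host (n = 4, wildtype, strain label C57Bl6J) came from host embryos, and PGC-ESC DKO (n = 3, C57Bl6J) lacked the apoptosis genes Puma and Noxa. ESC BaxKO (n = 2), PGC-ESC BaxKO (n = 5) and a Bax heterozygous ESC line (ESC BaxHet, n = 1, shown but in no test) have the strain label C57Bl6J/129SvEvRoEp; Bax encodes a pore-forming protein of mitochondrial apoptosis. Epiblast-like cells (EpiLC) were derived in vitro: EpiLC Host (n = 2) came from ESC Host 3 and 4, EpiLC DKO (n = 3) from PGC-ESC DKO 1 to 3. ESC culture was feeder-free on gelatin, with LIF and inhibitors of GSK3 and MEK. The sources used here give no EpiLC protocol. Bax genotype, strain label and time of derivation change together, as do origin and the DKO genotype within the C57Bl6J lines, and their parts cannot be told apart. Each library is a line, and a line appears in 1 library per cell state.

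OXPHOS passes electrons from NADH (complex I) and succinate (complex II) through coenzyme Q and complex III to cytochrome c and complex IV, which reduces oxygen. Complexes I, III and IV pump protons across the inner mitochondrial membrane, and ATP synthase uses the gradient to make ATP. Naive ESCs are known to use both respiration and glycolysis, whereas primed epiblast cells are known for a more glycolytic metabolism. Several subunits of complex IV exist as alternative isoforms made in different tissues.

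Promoters of OXPHOS genes are known for sites of NRF1, of ETS-family factors such as GABP (Gabpa and its partners) and of YY1. RefSeq windows (build GRCm38.p6, 250 bases before to 50 after the start) were matched for 75 of the 94 members and searched on both strands for an NRF1-like motif (its letters, with 1 free base in the middle, are the capitals in the Cox6a1 sequence) and an ETS-like motif, CCGGAAG. The same windows were searched for a YY1-like motif, AAGATGGC, and for a TATA-like motif, TATAAA. No motif contains another. The NRF1-like letters were in 18 of 75 members (24%), against 9.91% of 12737 tested genes and 5.19% of all 27025 windows. The ETS-like letters were in 19 members (25.3%, against 17.5% and 9.93%), the YY1-like letters in 11 (14.7%, against 4.53% and 3.19%) and the TATA-like letters in 8 (10.7%, against 9.34% and 15.7%). Shares of the NRF1-like letters were 14 of 52 among members called lower in EpiLCs and 4 of 22 among the other tested members. The bases before the start of 3 members that fell in EpiLCs are shown, cut where the GENCODE M21 gene begins: Cox6a1, with the smallest adjusted p among members with an NRF1-like match in this stretch, Ndufaf1, likewise for an ETS-like match, and Cox7a1, with the largest fall among called members. Capitals mark the matches, and a match is a run of letters, not a known binding site.
Cox6a1, minus strand, chr5:115348982-115349158: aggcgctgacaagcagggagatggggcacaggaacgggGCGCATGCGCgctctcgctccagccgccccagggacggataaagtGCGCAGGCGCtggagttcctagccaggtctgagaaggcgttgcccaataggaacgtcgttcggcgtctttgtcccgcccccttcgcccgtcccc
Ndufaf1, minus strand, chr2:119662835-119663034: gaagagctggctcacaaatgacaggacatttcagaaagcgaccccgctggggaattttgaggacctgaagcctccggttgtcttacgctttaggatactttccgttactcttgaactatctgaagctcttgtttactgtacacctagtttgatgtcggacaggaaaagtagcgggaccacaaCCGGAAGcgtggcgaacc
Cox7a1, plus strand, chr7:30183971-30184143: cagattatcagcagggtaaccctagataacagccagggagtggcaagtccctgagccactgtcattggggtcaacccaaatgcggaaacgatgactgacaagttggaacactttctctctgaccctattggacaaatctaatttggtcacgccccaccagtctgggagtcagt
Cox6a1 holds 2 NRF1-like matches, Ndufaf1 holds 1 ETS-like match, and the Cox7a1 stretch holds none of the first 3 motifs.

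Libraries held 14255399 to 33376660 counts. Summed markers of pluripotency (Pou5f1, Sox2, Nanog, Sall4) were at 2961 to 3934 CPM (counts scaled to a common library total) in the ESC and PGC-ESC libraries and 1111 to 1571 CPM in EpiLCs. The naive markers Zfp42, Klf4, Esrrb and Tfcp2l1 summed to 1747 to 3055 CPM against 61.9 to 101 CPM, and the formative markers Fgf5, Otx2, Pou3f1 and Dnmt3b to 96.4 to 203 CPM against 1153 to 2219 CPM. Of the last, Otx2 alone did not set EpiLC Host apart, at 2.81 and 6.94 CPM against 0.379 to 8.96 CPM in the stem cell lines. Primitive endoderm markers summed to at most 11.02 CPM in any library. Fibroblast markers (4 of 4 in the table) summed to 14.5 to 18.6 CPM in EpiLCs, 2.77 to 15.3 CPM across ESC Host and PGC-ESC DKO and up to 22.9 CPM across PGC-ESC BaxKO. Germ cell markers (Ddx4, Dazl, Mael) summed to 66.2 to 93.8 CPM in EpiLCs and 21.7 to 54.1 CPM across ESC Host and PGC-ESC DKO. The EpiLC sums rested on Ddx4 (28.9 to 52.6 CPM, against 6.03 to 22.9 CPM) and Mael (24.1 to 33.6 CPM, against 2.43 to 7.27 CPM). Dazl was not raised, at 5.24 to 12.2 CPM against 7.98 to 35.6 CPM. The part of the fibroblast or the germ cell list in the EpiLC results was not tested. Bax was at 1.66 to 2.43 CPM in the BaxKO lines and 229 to 533 CPM in the Host and DKO libraries. Rn45s, the ribosomal RNA precursor, was above 10000 CPM across ESC Host 3 and 4, ESC BaxKO 2 and all PGC-ESC DKO and EpiLC libraries, and at 1913 to 5106 CPM in the rest, all PGC-ESC BaxKO libraries included.

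The members together took 1.06 to 1.62% of a library's counts. Their summed level was 12272, 13056, 13238 and 16224 CPM across ESC Host 1 to 4, and 14661, 15900 and 13559 CPM across PGC-ESC DKO 1 to 3. EpiLC Host 3 and 4 had 10561 and 11188 CPM, and EpiLC DKO 1 to 3 had 11002, 11512 and 11236 CPM. The ESC BaxHet line had 11564 CPM, ESC BaxKO 1 and 2 had 11900 and 12090 CPM, and PGC-ESC BaxKO 1 to 5 had 12180, 11150, 12433, 11614 and 12734 CPM. The EpiLC libraries lay below every Host and DKO parent library and overlapped the Bax lines. ESC Host 4 and PGC-ESC DKO 2 were highest; they also had the most Rn45s, 51924 and 45205 CPM.

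**Figure D1:**
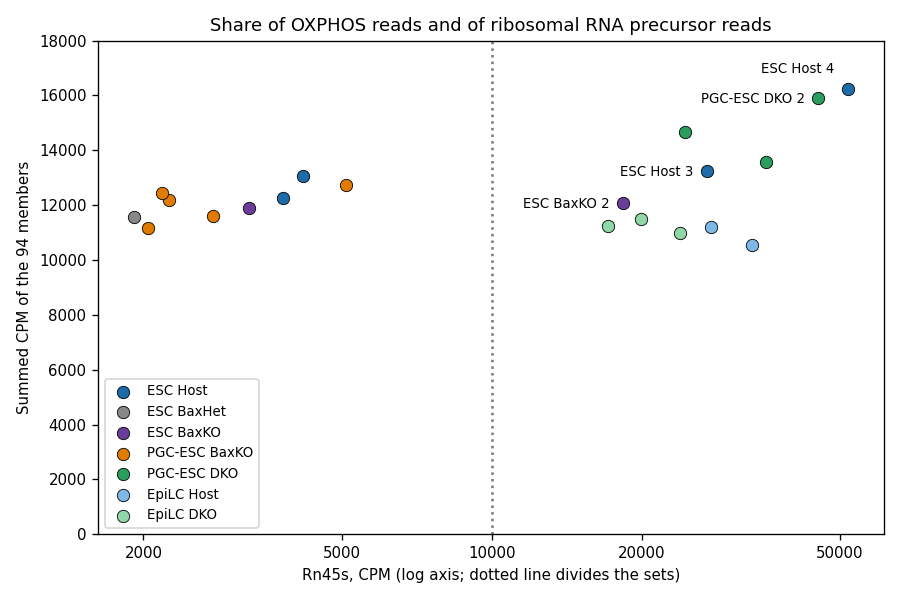
Summed CPM of the 94 members (vertical axis) against Rn45s CPM (horizontal log axis) for the 20 libraries, coloured by group; the dotted line at 10000 CPM divides the 2 Rn45s sets. ESC Host 4 and PGC-ESC DKO 2 have the highest values on both axes, whereas the 5 EpiLC libraries have high Rn45s and the lower member sums, 10561 to 11512 CPM.

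ESC Host 4 was the highest library of its group in 82 of 92 tested members (89.1%, against 30.0% of all 16363 tested genes), and PGC-ESC DKO 2 in 80 of 92 (87.0%, against 36.8%). This went with transcript length. In ESC Host 4 the median log2 difference from the other Host lines was 0.77 over all genes with a principal transcript under 700 bases, 0.41 from 700 to below 1500 bases and -0.13 from 1500 bases, and 0.87, 0.74 and 0.40 for the members. Short members such as Ndufa3 (515 bases) were high there (log2 difference 1.17), and long ones such as Sdha (2900 bases) were not (-0.27). Because members are short (median 742 bases), results that rest on these 2 libraries are also given without them.

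Per length, ATP synthase subunits were the most abundant group, with a median of 213 CPM per kilobase over all libraries. Complex III followed with 184, complex IV with 155, complex II with 97.6 and complex I with 77.9 CPM per kilobase. The complex I assembly factors, which help build the complex and are not part of it, were at 15.9 CPM per kilobase. Atp5b, the catalytic beta subunit, led with 1014 CPM per kilobase, ahead of Atp5a1 (alpha subunit, 560), Cox4i1 (534), Atp5g3 (461) and Cox6a1 (432). The order is across genes and depends on 1 principal transcript per gene.

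**Figure D2:**
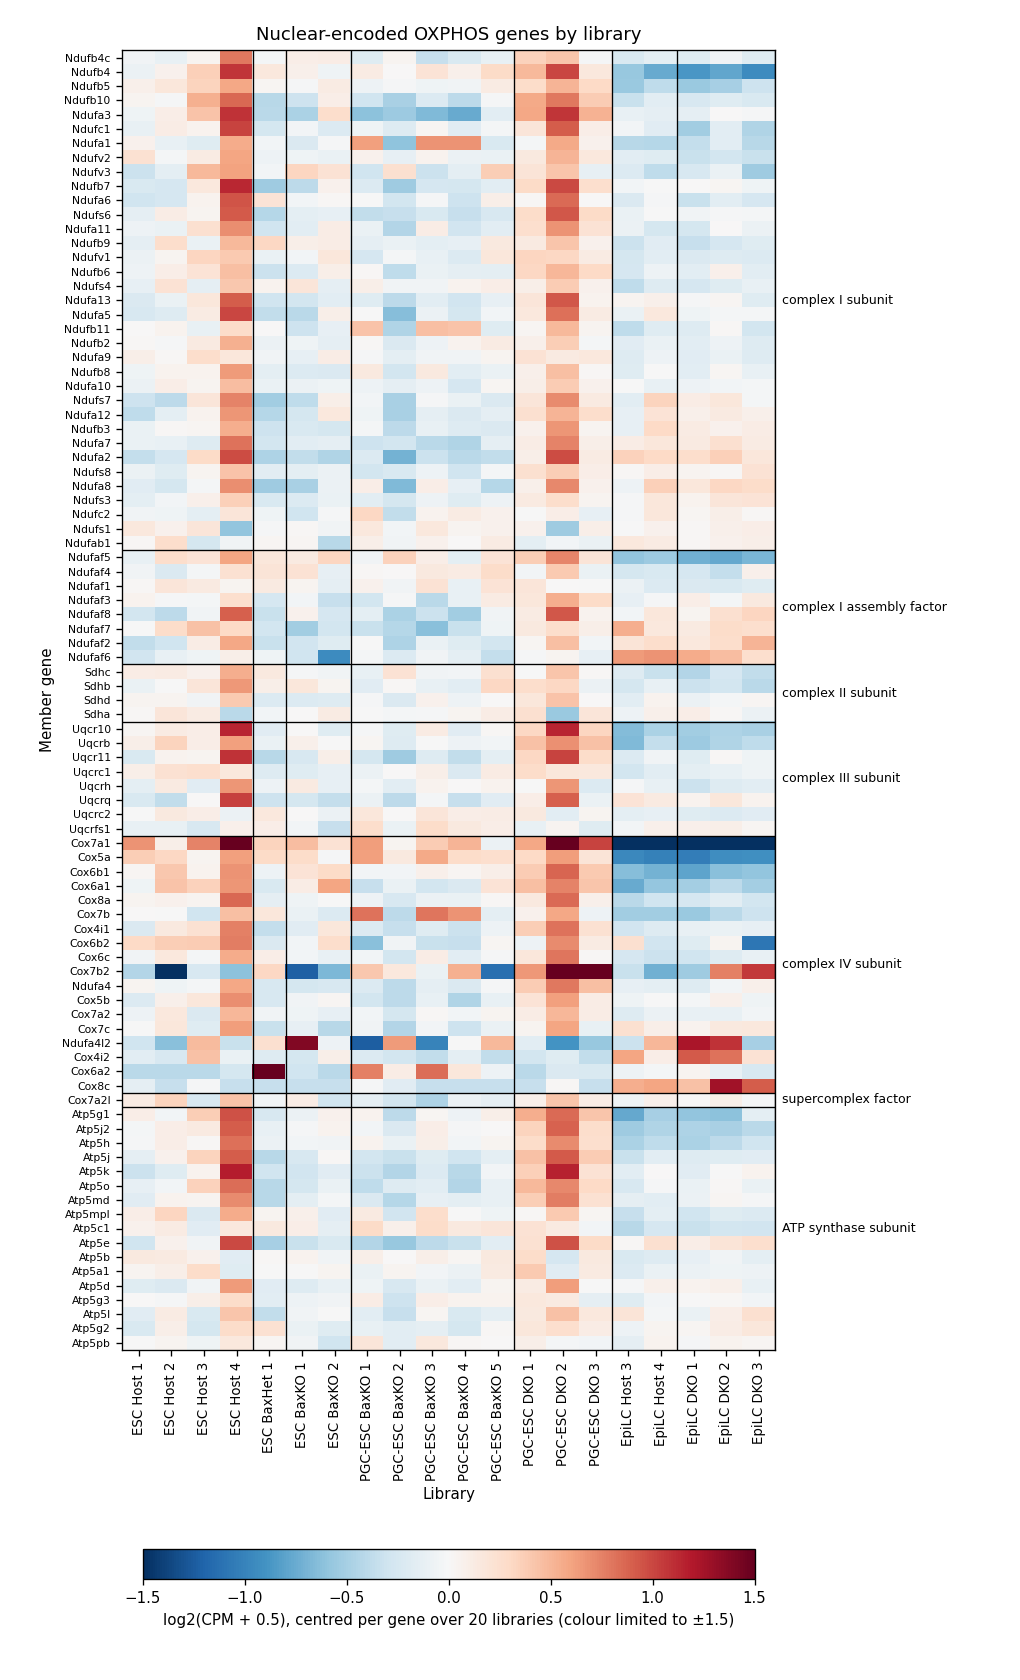
log2(CPM + 0.5) of the tested members, 1 left out (rows, by complex, ordered within each by the averaged EpiLC fold change) in 20 libraries (columns, by group), centred per gene. ESC Host 4 and PGC-ESC DKO 2 are red in most rows, and Cox7a1, Cox5a, Cox6b1, Cox6a1, Ndufaf5 and Ndufb4 are blue in all 5 EpiLC libraries.

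In EpiLCs most members were lower than in their parent lines, in every complex. Averaged over both line sets, 62 of 92 members fell and 4 were higher, by the quasi-likelihood test of edgeR, with p adjusted by Benjamini-Hochberg over all 16363 genes and a call at an adjusted p under 0.05, as in all tests here. Over all genes, 30.3% were called lower and 30.8% higher. The median log2 fold change was -0.54 for members and -0.01 for all genes. In these bulk samples fewer cells of a type and less RNA per cell cannot be told apart. In EpiLC Host against ESC Host, 31 members fell and 3 rose (all genes 21.7% and 22.4%; member median -0.46), and 49 members were lower without overlap between the groups (all genes 27.4%). In EpiLC DKO against PGC-ESC DKO, 53 fell and 2 rose (all genes 22.5% and 25.1%; member median -0.59), and 70 were lower without overlap (all genes 29.3%). Without ESC Host 4 and PGC-ESC DKO 2 together, 31, 53 and, averaged, 59 members were called lower, with medians of -0.22, -0.50 and -0.38. The shares of all genes above belong to the fit of all libraries, and none is given for fits with libraries left out. Without PGC-ESC DKO 2 alone, 29 members were lower and 2 higher in EpiLC DKO (median -0.45). Without EpiLC Host 3 the calls in EpiLC Host fell to 11, and without EpiLC Host 4 to 15, all of them lower.

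Each EpiLC library could be set against its own parent line. Members were lower in 79 of 92 for Host 3, 85 for Host 4, 87 for DKO 1, 85 for DKO 2 and 76 for DKO 3, where 47.3 to 49.6% of all genes were lower. The median log2 differences of the members were -0.37, -0.98, -0.53, -0.89 and -0.31 in that order, largest in the pairs with ESC Host 4 and PGC-ESC DKO 2 as parents. In all 5 pairs 68 members were lower (73.9%, against 30.2% of all genes), and 3 were higher, Cox4i2, Cox8c and Ndufaf6. For Cox4i2 the log2 differences in the pairs of Host 3 and 4 were only 0.08 and 0.13. It had 11 counts in EpiLC Host 3 and 12 in ESC Host 3, so the Host counts show no clear rise. The group tests above had no term for the line, so they took the libraries of a pair as independent. With the line as a block, 53 members fell in EpiLC Host and none rose. No count with this block is given here for EpiLC DKO or the averaged comparison. All libraries of these pairs were in the high Rn45s set. Within that set alone, 52 members fell in EpiLC Host. The shares of all genes called in these fits are not given, so 53 and 52 have no background beside them. In both fits ESC Host 3 and 4 alone stood for the parents of EpiLC Host, and the medians were -0.66 and -0.72, against -0.21 without ESC Host 4 in the fit of all libraries.

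**Figure D3:**
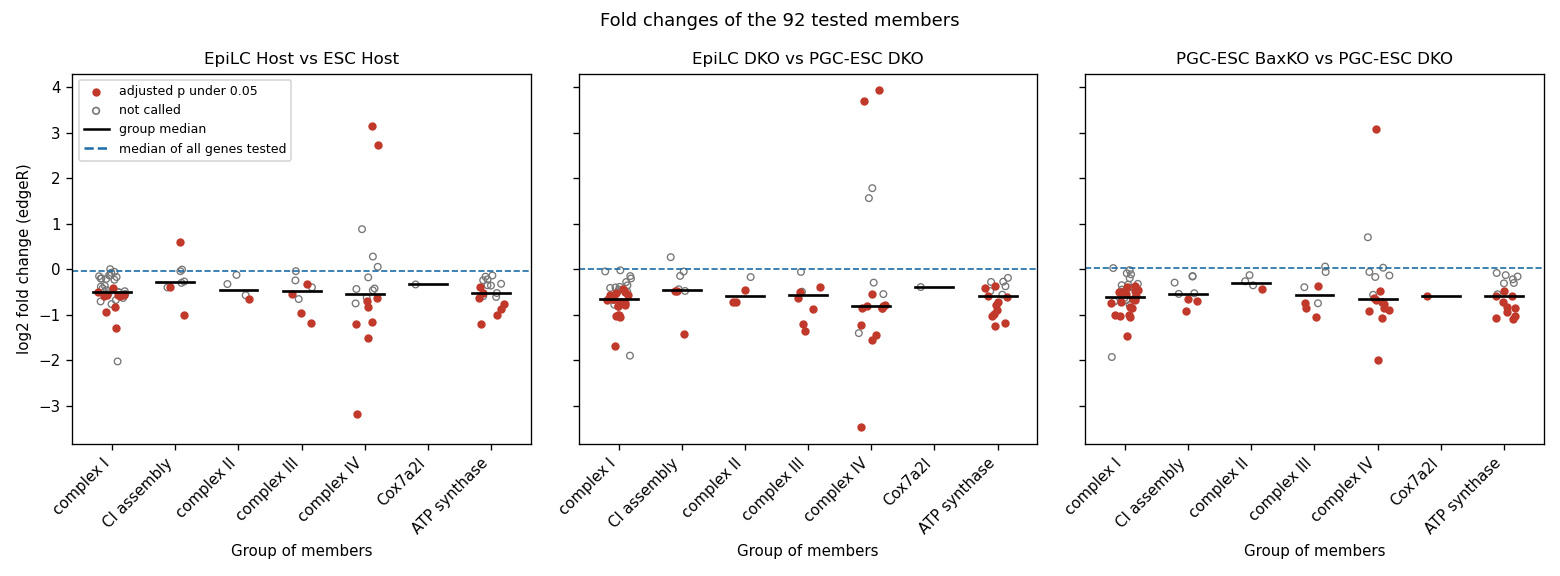
log2 fold change (edgeR) of the 92 tested members by group of members in 3 comparisons; filled points passed an adjusted p of 0.05, black bars are medians of each group of members and the dashed line is the median of all genes tested. In the EpiLC panels every group median is below the dashed line, from -0.29 to -0.81, and the points far above 0 are low-count complex IV isoforms.

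Complex IV, cytochrome c oxidase, had the lowest median (-0.69), with 12 of 18 tested members lower and 3 higher. Cox5a, a nuclear-encoded subunit on the matrix side (chromosome 9, 57521274 to 57532426), was at 215.5, 207, 171 and 255 CPM across ESC Host 1 to 4 and 205, 257 and 189.6 CPM across PGC-ESC DKO 1 to 3. It was at 84.6 and 82.4 CPM in EpiLC Host and 80.7, 87.2 and 87.6 CPM in EpiLC DKO. The groups were far apart, and Cox5a fell (-1.53 ± 0.14, averaged log2 fold change ± SE, adjusted p 4.28e-08). Its Bax lines, at 165 to 256 CPM, overlapped the other stem cell lines.

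Cox7a1, the heart and muscle isoform of subunit 7a (chromosome 7, 30184144 to 30186078), had the largest fall among called members. It was at 12.8, 8.32, 13.4 and 27.3 CPM across ESC Host and 11.99, 26.5 and 16.3 CPM across PGC-ESC DKO, against 2.04 and 1.85 CPM in EpiLC Host and 2.16, 2.17 and 1.31 CPM in EpiLC DKO. The groups did not overlap, and ESC Host 4 and PGC-ESC DKO 2 were the highest of theirs (-3.33 ± 0.34, adjusted p 1.96e-07). The other isoform, Cox7a2, was at 86.9 to 142 CPM across ESC Host and 88.0 and 94.7 CPM in EpiLC Host and also fell in the averaged comparison (-0.49 ± 0.14, adjusted p 0.00587).

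Cox6b1, which links the 2 monomers of the enzyme (chromosome 7, 30616861 to 30626151), was at 135, 176, 138 and 211 CPM across ESC Host and 173, 243 and 174 CPM across PGC-ESC DKO. In EpiLCs it was at 85.2 and 80.6 CPM (Host) and 76.5, 85.6 and 88.0 CPM (DKO), with no overlap (-1.30 ± 0.15, adjusted p 6.3e-07). Cox6a1, the widely expressed isoform of subunit 6a (chromosome 5, 115345642 to 115348981), was at 225, 318, 299.9 and 373 CPM across ESC Host and 321, 395 and 313 CPM across PGC-ESC DKO. It was at 139 and 157 CPM in EpiLC Host and 165, 179 and 165 CPM in EpiLC DKO, all below the parents (-1.21 ± 0.16, adjusted p 4.01e-06). Cox4i1 and Cox8a, the widely expressed isoforms of subunits 4 and 8, fell (-0.75 ± 0.17, adjusted p 0.00118, and -0.84 ± 0.19, adjusted p 0.000894). Ndufa4, a complex IV subunit in spite of its name, fell (-0.64 ± 0.15, adjusted p 0.00118), and Cox6b2, the testis isoform of 6b (-0.74 ± 0.21, adjusted p 0.00572).

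The tissue isoforms that were higher in EpiLCs were read at very low counts. Cox8c, a testis isoform of subunit 8, had 22 counts over both EpiLC Host libraries against 6 over ESC Host, and 50 over EpiLC DKO against 2 over PGC-ESC DKO. The ratios of counts, scaled to library totals, were 7.45 (95% counting interval 2.93 to 22.4) and 20.4 (5.37 to 173), and the averaged log2 fold change was 3.32 ± 0.74 (adjusted p 0.000941). Cox4i2, the lung isoform of subunit 4, had 45 counts in EpiLC DKO against 2 in PGC-ESC DKO (ratio 18.4, 4.81 to 157), but 16 in EpiLC Host against 17 in ESC Host, of which most were in ESC Host 3 (0.371 CPM). Cox6a2, the muscle isoform of 6a, had 7 counts in EpiLC Host against 1 in ESC Host (ratio 14.2, 1.83 to 641) and 10 in EpiLC DKO against 2 in PGC-ESC DKO (4.09, 0.872 to 38.4). All 3 stayed at or below 1.01 CPM in every EpiLC library, where Cox8a was at 158 to 187 CPM and Cox4i1 at 315 to 361 CPM. Intervals cover counting error only. Outside EpiLCs Cox8c was at most 0.140 CPM and Cox4i2 at most 0.371 CPM. Both passed the filter on low counts only through EpiLC libraries, so their calls as higher there are no independent support.

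The other alternative isoforms did not pass in the averaged comparison. Ndufa4l2, a hypoxia-related relative of Ndufa4, ranged from 0.352 to 1.33 CPM across ESC Host, 0.210 to 0.676 CPM across PGC-ESC DKO and 0.435 to 2.58 CPM in EpiLCs (1.03 ± 0.62, adjusted p 0.159). Cox7b2, a testis relative of Cox7b, was at 2.28, 5.68 and 6.69 CPM across PGC-ESC DKO and 0.0440 to 0.989 CPM across ESC Host, and at 0.719, 2.47 and 3.17 CPM in EpiLC DKO (averaged -0.68 ± 0.54, adjusted p 0.288). Cox8b, the muscle isoform of subunit 8, had no counts in the 5 EpiLC libraries and at most 2 in any library.

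**Figure D4:**
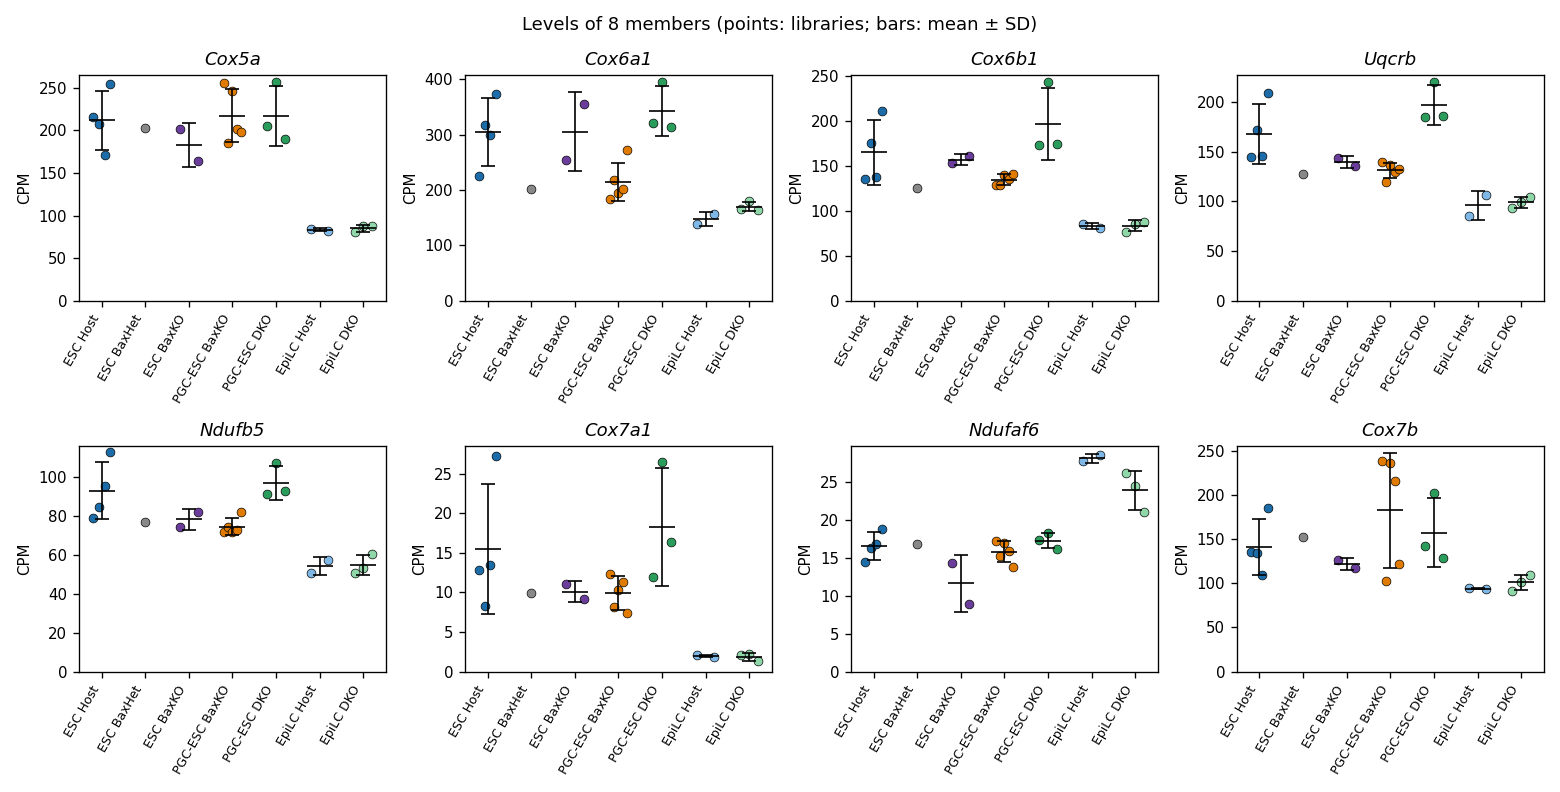
CPM of 8 members by library (points) with mean ± SD (bars) in the 7 groups; axes start at 0. Cox5a, Cox6a1, Cox6b1, Uqcrb, Ndufb5 and Cox7a1 lie lower in both EpiLC groups than in their parent lines, Ndufaf6 lies higher, and X-linked Cox7b falls into separate levels within PGC-ESC BaxKO.

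Complex III, ubiquinol-cytochrome c reductase, had 6 of 8 members lower and none higher (median -0.52). Uqcrb, a small subunit close to the quinone site (chromosome 13, 66900617 to 66905378), was at 145, 172, 146 and 209 CPM across ESC Host, 184, 220.4 and 186 CPM across PGC-ESC DKO, 85.8 and 107 CPM in EpiLC Host and 93.6, 99.2 and 105 CPM in EpiLC DKO. Every EpiLC library was below every parent library (-1.08 ± 0.13, adjusted p 1.02e-06); 50 exonic bases are shared with Gm10767 on the other strand. The core proteins Uqcrc1 and Uqcrc2, both long transcripts, fell (-0.53 ± 0.09, adjusted p 4.56e-05, and -0.36 ± 0.07, adjusted p 0.000246).

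Complex I, NADH dehydrogenase, had 24 of 36 tested members lower and none higher (median -0.56); the pseudogene Ndufb4c is among both numbers. Ndufb5, an accessory subunit of the membrane arm (chromosome 3, 32736990 to 32751566), was at 79.3, 84.9, 95.4 and 113 CPM across ESC Host and 91.4, 107 and 92.9 CPM across PGC-ESC DKO. In EpiLCs it was at 51.0, 57.5, 50.8, 53.1 and 60.6 CPM (-0.99 ± 0.13, adjusted p 2.89e-06); it shares 616 exonic bases with Mrpl47 on the other strand. Ndufv1, which binds NADH and flavin, fell (-0.61 ± 0.13, adjusted p 0.000442).

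Among the assembly factors of complex I, 4 of 8 fell and 1 rose. Ndufaf5, a methyltransferase-like factor (chromosome 2, 140170649 to 140203689), was at 15.9, 20.6, 19.8 and 26.1 CPM across ESC Host and 22.4, 28.9 and 19.7 CPM across PGC-ESC DKO, against 11.2 and 11.6 CPM in EpiLC Host and 10.2, 9.84 and 10.5 CPM in EpiLC DKO (-1.22 ± 0.17, adjusted p 7.46e-06). Ndufaf6, needed for early assembly steps (chromosome 4, 11051045 to 11076205), went the other way: it was at 14.4, 16.3, 16.9 and 18.8 CPM across ESC Host and 17.4, 18.2 and 16.2 CPM across PGC-ESC DKO, and at 27.7 and 28.6 CPM in EpiLC Host and 26.2, 24.5 and 21.1 CPM in EpiLC DKO. All 5 EpiLC libraries were above all parents, and the averaged change was 0.43 ± 0.13 (adjusted p 0.00935). Ndufaf1 and Ndufaf4 also fell (-0.44 ± 0.10, adjusted p 0.000989, and -0.44 ± 0.14, adjusted p 0.0137; with library totals as the scaling Ndufaf4 did not pass, adjusted p 0.0741).

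Complex II, succinate dehydrogenase, is also an enzyme of the tricarboxylic acid cycle, and 3 of its 4 subunits fell (median -0.52). Sdhd, a membrane anchor, fell (-0.39 ± 0.12, adjusted p 0.0105), but did not pass with library totals or without EpiLC Host 3 (adjusted p up to 0.0785). Sdha, the flavoprotein, was at 338, 381, 365 and 252 CPM across ESC Host and 317 and 354 CPM in EpiLC Host, with overlap, and did not pass (-0.15 ± 0.11, adjusted p 0.241). The supercomplex factor Cox7a2l fell (-0.36 ± 0.13, adjusted p 0.0239). It did not pass in 4 of 23 alternatives, among them without PGC-ESC DKO 2 (adjusted p 0.0707, and up to 0.1895 over all).

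ATP synthase had 12 of 17 subunits lower and none higher (median -0.57). Atp5b was at 2131, 2119.7, 2025 and 1723 CPM across ESC Host and 2339, 1624 and 2146 CPM across PGC-ESC DKO. In EpiLCs it was at 1649 and 1683 CPM (Host) and 1777, 1867 and 1749 CPM (DKO). In these CPM, which are without TMM scaling, the DKO groups overlapped through PGC-ESC DKO 2, but not with TMM scaling. Atp5b fell (-0.39 ± 0.08, adjusted p 0.000651), and so did Atp5a1 (-0.38 ± 0.10, adjusted p 0.00277, or 0.0708 with library totals). The 3 genes of the c-ring subunit, which encode the same mature peptide, had different values. Atp5g1 was at 242, 218, 291 and 436 CPM across ESC Host and 132 and 159 CPM in EpiLC Host and fell (-1.23 ± 0.20, adjusted p 3.12e-05). Atp5g3 fell (-0.32 ± 0.11, adjusted p 0.0188), but did not pass with library totals or without EpiLC Host 3 (adjusted p up to 0.201), and Atp5g2, at 123 to 179 CPM across ESC Host and 140.2 and 151 CPM in EpiLC Host, did not pass (-0.22 ± 0.12, adjusted p 0.107). How reads that fit several related genes were counted was not stated in any label.

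The fall in EpiLCs was present at all transcript lengths. Among members under 700 bases 27 of 39 fell, with a median of -0.66 against -0.47 for all 384 genes of that length, of which 43.2% fell. From 700 to below 1500 bases 20 of 34 fell (median -0.41 against -0.23; all genes 37.5%). From 1500 bases 12 of 15 fell (median -0.44 against 0.04; all genes 29.1%). Cytosolic ribosomal protein genes, which are also short, had a median of -0.54 (74 of 94 lower), and mitochondrial ribosomal protein genes a median of -0.32 (32 of 78 lower). The part of transcript length in the fall was not tested beyond these values.

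**Figure D5:**
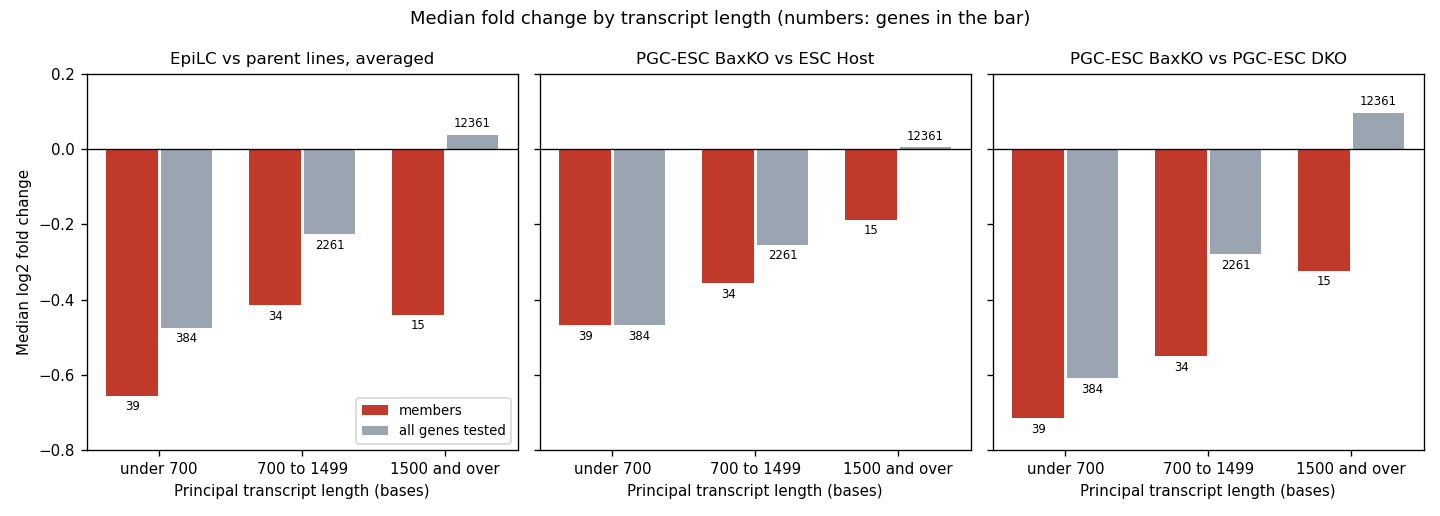
Median log2 fold change by principal transcript length for members (red) and all genes tested (grey) in 3 comparisons; the number of genes stands at each bar. In EpiLCs the longest members had a median of -0.44 where all genes had 0.04, whereas in PGC-ESC BaxKO against ESC Host the shortest members and all genes of that length both had -0.47.

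The EpiLC responses of the Host and DKO lines were compared directly. No member was called between the responses (0 called, 1 at an unadjusted p under 0.05, all genes 0.00611% called, and DESeq2 also called 0). The median, DKO minus Host, was -0.13 for members and 0.06 for all genes, and 81 of 92 members were negative. On leaving out a library the member median ran from -0.39 to 0.07. With so few calls over all genes, a lack of calls does not show equal responses. Between EpiLC DKO and EpiLC Host no member was called (0 at an unadjusted p under 0.05; all genes 0.0428%; DESeq2 0), with a median difference of 0.04. Pmaip1, which encodes Noxa, was at 314 and 333 CPM in EpiLC Host and 3.86 to 5.69 CPM in EpiLC DKO.

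Genes around OXPHOS were read from 6 lists, whose counts in the averaged comparison stand beside 30.3% of all genes lower and 30.8% higher. Of assembly factors and chaperones outside the naming rule, 13 of 39 fell and 4 rose (median -0.23), among them Sco1, a copper chaperone for complex IV (-0.72 ± 0.09, adjusted p 3.61e-06), Uqcc1, a complex III assembly factor (-0.55 ± 0.09, adjusted p 3.65e-05), and Coa7 (-0.65 ± 0.12, adjusted p 0.000129). Of electron carriers and enzymes of coenzyme Q synthesis 7 of 16 fell and 1 rose (median -0.22). Etfb, which carries electrons from fatty acid oxidation, was at 82.0 to 184 CPM across ESC Host and 41.6 and 49.4 CPM in EpiLC Host (-1.66 ± 0.22, adjusted p 3.98e-06), and the coenzyme Q enzymes Coq6 (-0.66 ± 0.08, adjusted p 2.39e-06) and Pdss1 (-0.78 ± 0.11, adjusted p 1.14e-05) also fell.

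In the tricarboxylic acid cycle 7 of 14 genes fell and 3 rose (median -0.15). Idh2, the mitochondrial NADP-dependent isocitrate dehydrogenase, was at 253, 194, 241 and 268 CPM across ESC Host and 55.7 and 76.7 CPM in EpiLC Host (-2.04 ± 0.13, adjusted p 4.38e-10). Idh3b, a subunit of the NAD-dependent enzyme, fell (-0.63 ± 0.08, adjusted p 2.18e-06), and Dlst, of the oxoglutarate dehydrogenase complex, rose (0.54 ± 0.08, adjusted p 1.37e-05).

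Among genes of pyruvate entry and ADP/ATP exchange 10 of 17 fell and 2 rose (median -0.38). Pdk1, a kinase that inhibits pyruvate dehydrogenase, was at 19.7, 30.5, 49.1 and 15.2 CPM across ESC Host and 169 and 207 CPM in EpiLC Host (2.90 ± 0.38, adjusted p 3.98e-06). Vdac1, the outer membrane channel, was at 875 to 1285 CPM across ESC Host and 448 and 571 CPM in EpiLC Host (-1.17 ± 0.13, adjusted p 6.28e-07). Mpc1, a subunit of the pyruvate carrier, was low throughout, at 2.99 to 12.3 CPM across ESC Host and 1.91 and 0.603 CPM in EpiLC Host (-2.27 ± 0.37, adjusted p 4.44e-05).

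Of 14 regulators of mitochondrial genes 5 fell and 3 rose (median -0.02). Gabpa, whose exons share 397 bases with Atp5j on the other strand, fell (-0.48 ± 0.11, adjusted p 0.000789), as did Tfb2m, a mitochondrial transcription factor (-0.39 ± 0.09, adjusted p 0.00132; 0.0623 with library totals), and Twnk, the mitochondrial helicase, rose (0.35 ± 0.08, adjusted p 0.000981). Among 7 genes of uncoupling and alternative routes, Ucp2 fell (-1.41 ± 0.20, adjusted p 7.4e-06), and Prodh (0.92 ± 0.13, adjusted p 1.22e-05), Sqor (at or below 0.979 CPM, 3.87 ± 0.60, adjusted p 6.95e-05) and Gpd2 rose, the last named only to complete the count.

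Between stem cell lines, PGC-ESC origin was compared within each genotype set. In PGC-ESC BaxKO against ESC BaxKO no member was called (4 at an unadjusted p under 0.05; all genes 0.0367%; DESeq2 0), with a median of -0.04. In PGC-ESC DKO against ESC Host none was called (2 at an unadjusted p under 0.05; all genes 0.116%; median 0.18), and DESeq2 called 1 higher. The median was -0.03 without PGC-ESC DKO 2 and 0.44 without ESC Host 4, where 1 member was called higher.

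PGC-ESC BaxKO (n = 5) was lower than both C57Bl6J stem cell groups in part of the members. ESC BaxKO (n = 2) had 1 call against ESC Host, with a median close to that of PGC-ESC BaxKO. PGC-ESC BaxKO had 49 members lower and 1 higher than PGC-ESC DKO (all genes 11.4% and 12.2%; member median -0.58), and 59 were lower without overlap (all genes 14.8%). Against ESC Host, 19 were lower and 1 higher (all genes 9.37% and 7.94%; median -0.40), and 5 were lower without overlap (all genes 6.78%). ESC BaxKO had 1 member lower than ESC Host, Ndufaf7 (all genes 2.26% lower, 2.76% higher), with a median of -0.36, or -0.12 without ESC Host 4, where Ndufaf7 was not called. In ESC BaxKO 19 members were lower than ESC Host without overlap. No share of all genes is given for this count, so it cannot be read as a result about the members. Of 92 members 89 had a negative fold change there, and 82 in PGC-ESC BaxKO against ESC Host. The medians of all genes were -0.05 and -0.04 in these 2 comparisons. The 2 Bax groups differ in size, so their counts of calls do not show a difference between them. These comparisons share control or test groups and are not independent of each other.

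By role, PGC-ESC BaxKO was lower than PGC-ESC DKO in 19 of 36 complex I members (Ndufb4c tested, not called), 10 of 17 ATP synthase subunits, 11 of 18 complex IV members, 4 of 8 complex III members, 3 of 8 assembly factors and 1 of 4 complex II members. Ndufa3, an accessory subunit of complex I (chromosome 7, 3617373 to 3620327), was at 29.8, 31.3, 28.8, 26.9 and 41.1 CPM across PGC-ESC BaxKO 1 to 5, at 68.9, 97.02 and 65.9 CPM across PGC-ESC DKO and at 43.8, 49.3, 61.6 and 97.2 CPM across ESC Host. It did not overlap with either group and was lower by a log2 fold change of -1.46 ± 0.26 against DKO (adjusted p 0.00152) and -1.13 ± 0.25 against Host (adjusted p 0.00541). ESC BaxKO 1 and 2, at 32.7 and 54.9 CPM, were in the low and the high Rn45s set, and Ndufa3 was at 41.5 to 46.1 CPM in EpiLCs.

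Ndufb10, of the membrane arm of complex I, was at 53.6 to 74.0 CPM (median 60.9) in PGC-ESC BaxKO and 111, 130.5 and 98.1 CPM across PGC-ESC DKO (-1.04 ± 0.21, adjusted p 0.00311). ESC Host had 77.3, 74.4, 109 and 137 CPM (-0.80 ± 0.19, adjusted p 0.0105). Atp5j, coupling factor 6 of ATP synthase, was at 103 to 117 CPM across PGC-ESC BaxKO, 176, 245 and 169 CPM across PGC-ESC DKO and 118, 136, 163 and 243 CPM across ESC Host (-1.02 ± 0.22, adjusted p 0.00413, and -0.73 ± 0.20, adjusted p 0.0211). For both genes ESC Host 1 and 2, in the low Rn45s set, were nearer to PGC-ESC BaxKO than ESC Host 3 and 4 were. Cox6a1 was lower too (-0.85 ± 0.19, adjusted p 0.00495 against DKO; -0.62 ± 0.17, adjusted p 0.0218 against Host). Ndufa4 (-0.91 ± 0.17, adjusted p 0.0023) and Uqcrb (-0.75 ± 0.15, adjusted p 0.00265) were lower against DKO, and Cox6b2 against Host (-0.83 ± 0.23, adjusted p 0.0215).

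These differences moved with Rn45s set, transcript length and 2 libraries. All PGC-ESC BaxKO libraries were in the low and all PGC-ESC DKO libraries in the high Rn45s set, so set and group cannot be told apart there. With the set as a covariate no member passed between them (0 of 92, median -0.18), and without PGC-ESC DKO 2 the count fell from 50 to 10. Against ESC Host, the low set alone (ESC Host 1 and 2) gave 0 calls and a median of -0.05, and leaving out ESC Host 4 gave 4 calls, 3 of them lower. For genes under 700 bases the median was -0.47 for members and -0.47 for all genes against ESC Host, and -0.71 against -0.61 in the comparison with PGC-ESC DKO. Summed trophoblast markers (4 of 4 in the table, Elf5 at most 0.31 CPM) were at 16.7 to 58.5 CPM across PGC-ESC BaxKO and 32.3 and 50.2 CPM across ESC BaxKO, against 3.08 to 12.9 CPM across ESC Host and 3.84 to 17.4 CPM across PGC-ESC DKO. Summed germ cell markers were at 27.9 to 155 CPM across PGC-ESC BaxKO, with Dazl at 141, 128 and 70.0 CPM in lines 1, 3 and 4, and at 21.7 to 38.04 CPM across PGC-ESC DKO. The part of either list in the result was not tested.

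Ndufaf7, a methyltransferase that modifies a complex I subunit (chromosome 17, 78937136 to 78948052, 1749 bases), was called lower than ESC Host in both BaxKO groups. It was at 15.5, 14.5, 12.5, 15.5 and 18.9 CPM across PGC-ESC BaxKO and 13.5 and 16.2 CPM across ESC BaxKO, against 19.7, 23.9, 26.9 and 24.3 CPM across ESC Host and 21.8, 23.7 and 20.98 CPM across PGC-ESC DKO. The BaxKO lines were below all Host and DKO lines (-0.73 ± 0.15, adjusted p 0.00436 for PGC-ESC BaxKO and -0.76 ± 0.20, adjusted p 0.0385 for ESC BaxKO, both against ESC Host). The ESC BaxHet line had 16.2 CPM. Within the low Rn45s set neither comparison passed (adjusted p 0.1998 and 0.485), and the call for ESC BaxKO was lost in 9 of 17 alternatives.

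Cox6a2 was the member higher in PGC-ESC BaxKO. It had 39 counts over the 5 libraries (0.614, 0.214, 0.679, 0.242 and 0.130 CPM) against 1 over ESC Host (ratio 34.1, 5.78 to 1383) and 2 over PGC-ESC DKO (ratio 10.5, 2.71 to 89.5). The ESC BaxHet line had 1.58 CPM, and ESC BaxKO had 0.0361 and 0 CPM. The adjusted p was 0.00357 against Host and 0.0248 against DKO. It was far below Cox6a1, at 184 to 272 CPM in the same lines, and it shares 70 exonic bases with Itgad on the other strand.

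Of the members, 3 are X-linked: Ndufa1, needed for assembly of the complex I membrane arm, Ndufb11, of the same arm, and Cox7b of complex IV. PGC-ESC BaxKO 1, 3 and 4 had no Y-linked counts, and 2 and 5 had a Y-linked mean of 53.5 and 53.0 CPM. Cox7b was at 238, 236 and 215.5 CPM in lines 1, 3 and 4 and 103 and 122 CPM in lines 2 and 5. Ndufa1 was at 48.2, 50.2 and 50.3 CPM against 20.4 and 26.7 CPM, and Ndufb11 at 88.2, 90.1 and 88.0 CPM against 48.0 and 57.5 CPM. For all 3 the lines without Y-linked counts were higher without overlap, which also held for autosomal members such as Ndufa8 and Cox7a1. The log2 differences were 0.99, 1.03 and 0.71, where 86 autosomal members had a median of -0.01 and a range from -1.32 to 0.74. This is a description of 5 lines with no test.

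Across PGC-ESC DKO, lines 1 and 2, which had no Y-linked counts, had Cox7b at 142 and 202 CPM. Line 3, with Y-linked counts, had 128 CPM. Ndufa1 and Ndufb11 did not follow: in CPM, line 2 was above line 3, but line 1 was not. Line 2 was also the highest PGC-ESC DKO line in 80 of 92 tested members, so it stood apart from its group. In the EpiLCs of these lines, Cox7b was lower in lines 1 and 2 than in line 3. Across ESC Host, Cox7b was also lower in the lines without Y-linked counts. It was at 136, 134 and 110 CPM in lines 1 to 3 against 185.5 CPM in line 4. ESC Host 4 had a Y-linked mean of only 3.84 CPM, against 42.8 CPM in PGC-ESC DKO 3. It was also the highest Host line in 82 of 92 tested members, so the contrast across ESC Host rests on 1 library that stood apart. In PGC-ESC BaxKO against ESC BaxKO, whose lines had Y-linked counts, none of the 3 passed (Cox7b 0.56 ± 0.31, adjusted p 0.566; Ndufa1 0.41 ± 0.32, adjusted p 0.69; Ndufb11 0.38 ± 0.23, adjusted p 0.608). In EpiLCs all 3 fell in the averaged comparison (Cox7b -0.80 ± 0.22, adjusted p 0.0041; Ndufa1 -0.73 ± 0.23, adjusted p 0.0108; Ndufb11 -0.53 ± 0.16, adjusted p 0.00961); Ndufb11 did not pass with library totals or without EpiLC Host 3 (adjusted p up to 0.0615).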

How the data were processed

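Poly(A) RNA was read in 20 mouse libraries in 7 groups. The values are raw read counts for 21361 genes in 1 table, as the authors deposited it (0 values were not whole); per the submitters' processing notes, reads were aligned with STAR 2.7.7a to mm10. The use of strand in counting, the counting tool and the annotation were not given in the sources used here, so reads of the 22 members that share exon bases with a gene on the other strand may be mixed. Library totals ran from 14255399 to 33376660 counts. Chi-square per gene between replicates was 6.18 to 207 over 24 pairs, above counting error; p-values measure the spread between these lines.

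Counts were tested with edgeR 4.0.16 (R 4.3.3), the quasi-likelihood F test, TMM scaling, the default filter (16363 genes tested) and 1 coefficient per group over all 20 libraries (13 residual degrees of freedom). P-values are two-sided and adjusted over all tested genes by the Benjamini-Hochberg method. Log2 fold changes are given ± SE, taken as the fold change over the root of F. The averaged EpiLC comparison weights both line sets equally. Levels of single genes are CPM by library totals. Counts of genes without overlap, or highest in 1 library of a group, use TMM-scaled CPM. The figure of all members uses log2(CPM + 0.5). Scripts were tested on simulated data.

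The members, roles and gene lists were chosen with earlier results of these data known. Named were up to 6 called members per direction and comparison with the smallest adjusted p, the 2 of each complex with the highest mean CPM, alternative isoforms, X-linked members and up to 3 called genes per other list; 1 member, kept in all counts, is not reported here by name or drawn in the figure of all members. Positions, and principal transcript lengths for 89 members, come from GENCODE M21; 91 members matched 1 gene. EpiLC libraries were paired with parents because they come from the same line; deviations of paired libraries correlated at 0.170 and 0.231 (Host 3, 4) and 0.149, 0.127 and 0.0996 (DKO 1 to 3). Alternatives were RLE scaling, library totals, other filters, DESeq2 1.42.0, the compared groups alone, Rn45s as covariate, removed or within a set, line blocks, Y-linked expression as covariate and each library left out; leaving out ESC Host 4 and PGC-ESC DKO 2 together was chosen after seeing the data.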

Additional observations from a re-analysis of the deposited data

Results flagged for a closer look

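In groups of 4 or 5 libraries a library was marked where its gap to the next, divided by the group's range, passed Dixon's critical value (0.829 for 4 and 0.710 for 5); of 82 groups of named members tested, 7 were marked, and chance marks about 1 in 20. ESC Host 4 stood above the other Host lines for Cox8a (378 CPM, the next at 217 CPM), Ndufa4 (193 CPM, the next at 133 CPM), Cox6b2 (107 CPM, the next at 82.1 CPM) and Cox6a2 (0.0497 CPM, 1 count, the others at 0). With the others at 0 any count gives a gap ratio of 1, so the Cox6a2 mark carries no weight. The rate of 1 in 20 does not hold for such a group. ESC Host 3 stood above the others for Cox4i2 (0.371 CPM, the next at 0.0995 CPM). PGC-ESC BaxKO 5 was highest for Ndufb5 (82.2 CPM, the next at 74.4 CPM), and PGC-ESC BaxKO 2 was lowest for Atp5g3 (264 CPM, the next at 339 CPM).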

How the results depend on the processing

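The count of members called in EpiLC Host against ESC Host was 34; it was 53 with the Rn45s set as a covariate, 52 within the high set, 53 with the replicate block (line) and 11 with the compared groups alone, and 11 to 45 when each library was left out (11 without EpiLC Host 3, 15 without EpiLC Host 4). In EpiLC DKO against PGC-ESC DKO the 55 calls became 31 to 59 on leaving out a library (31 without PGC-ESC DKO 2), and the averaged 66 became 53 to 72. For PGC-ESC BaxKO against ESC Host the 20 calls became 1 with the Rn45s covariate, 0 within the low set, 3 with the compared groups alone, 6 without ESC Host 4 and PGC-ESC DKO 2 together, and 4 to 41 on leaving out a library (4 without ESC Host 4, 41 and 31 without ESC Host 1 and 2, 12 without ESC Host 3, and 8, 10, 10 and 6 without PGC-ESC BaxKO 1 to 4). Against PGC-ESC DKO the 50 became 0 with the Rn45s covariate and 10 to 57 on leaving out a library. For ESC BaxKO against ESC Host the 1 call became 2 with the Rn45s covariate, 3 by DESeq2 and 0 with no filter, with the compared groups alone, within the low set, and without ESC Host 4 and PGC-ESC DKO 2 together, and 0 to 2 on leaving out a library. PGC-ESC DKO against ESC Host gave 1 by DESeq2 and 0 to 1 on leaving out a library. The causes were not tested, except that fewer libraries and genes enter the smaller fits. The remaining comparisons stayed at 0 calls in all alternatives run, the replicate block (number) included, where BaxKO lines share only a number (correlations 0.0644 and -0.0161) and the count stayed at 0. Scaling by library totals moved the median of all genes to 0.11 (EpiLC Host), 0.21 (EpiLC DKO), 0.16 (averaged), 0.19 (PGC-ESC BaxKO against DKO) and -0.12 (PGC-ESC DKO against ESC Host); member medians were then -0.29, -0.38, -0.35, -0.40 and 0.14. Of 1780 values of named genes under alternatives, 1697 kept direction and side of the threshold, 77 no longer passed, 4 newly passed and 2 changed sign: Sdha in EpiLCs (0.012 with library totals) and Ndufa1 between the BaxKO groups (-0.017 with Y-linked expression as a covariate). Genes with few counts, such as Cox8c, Cox4i2 and Cox6a2, are limited by depth: Cox8c in EpiLC Host no longer passed in 8 of 16 alternatives.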
